A study of Mus musculus with 4 samples.

Results

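The 10 genes studied here belong to the NRF2 antioxidant response and were read from hippocampal RNA sequencing of mice after global cerebral ischemia. They were taken by symbol from the count tables, and all 10 were found among the 22609 gene symbols listed. NRF2, encoded by Nfe2l2, is a transcription factor that KEAP1 holds in the cytoplasm and hands to a CUL3 ubiquitin ligase for degradation. Oxidants and electrophiles modify cysteines of KEAP1, and NRF2 then enters the nucleus, pairs with a small MAF protein and binds antioxidant response elements near genes for glutathione synthesis, thioredoxin recycling, quinone reduction and heme breakdown. In the brain this response is known as strong in astrocytes, which supply neighboring neurons with glutathione precursors.

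The mice were ovariectomized females, operated 1 week before ischemia. Both common carotid arteries were clipped for 20 min, and hippocampi were taken after 24 h of reperfusion. The 2 libraries of the FLOX-control group were compared with 2 libraries of GFAP-ARO-KO mice, whose Cyp19a1 gene (aromatase, the enzyme that makes estrogens) was deleted by Cre from the GFAP promoter, per the labels in astrocytes. The labels give no ages and no sham group, so every library comes from ischemic tissue and a difference before surgery cannot be told apart from a difference in the response. They do not say whether a library is 1 animal or a pool, so the p-values measure the spread between these libraries.

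Libraries held 27930696 to 34878375 reads assigned to genes. Reads of Cyp19a1 numbered 3 and 2 with FLOX-control and 1 and 9 with GFAP-ARO-KO, too few to check the genotype. Hippocampal excitatory neuron markers were abundant in every library. Over 7 markers the summed level was 7894 and 8472 CPM (read counts scaled to each library's total with TMM factors) in control libraries. In knockout libraries it was 7240 and 7022 CPM, and of the 7 markers Neurod6 fell and Prox1 rose. The summed level of 12 microglia and macrophage markers was 537 and 601 CPM in control libraries and 295 and 302 CPM in knockout libraries, and 9 of the 12 fell. That of 8 meningeal markers was 113 and 156 CPM in control libraries, 130 CPM in the first knockout library and 465 CPM in the second. Igf2 alone held 225 of those 465 CPM. The second knockout library also held 235 CPM of 4 mural cell markers, against 52.5 to 70.4 CPM in the other libraries. Acta2 (114 CPM) and Tagln (60.3 CPM) made up most of that mural sum, while Rgs5, at 20.5 CPM, lay within the range of the other libraries. Over 8 astrocyte markers the summed level was 5026 and 5307 CPM in control libraries and 4904 and 5371 CPM in knockout libraries. Slc1a2 was the most abundant of the 8, at 2501 to 2979 CPM, and weighs most in the sum. Of the 8, Aqp4 and Sox9 fell and Glul rose, and Aqp4 went from 231 and 240 CPM to 73.9 and 105 CPM. Of 6 reactive astrocyte markers 3 fell (Gfap, Timp1 and Cd44), 1 rose (Lcn2) and 2 did not pass. Their summed level was 1990 and 2145 CPM in control libraries and 1217 and 1273 CPM in knockout libraries, with Gfap weighing most. Of 7 oligodendrocyte markers 4 fell (Mog, Mag, Mobp and Olig2) and 0 rose, and their summed level was 4003 and 3780 CPM in control libraries and 3391 and 3603 CPM in knockout libraries. Of 5 tested choroid plexus markers 2 rose (Ttr and Clic6), and the summed level of the 6 listed was 42.2 and 41.1 CPM against 53.4 and 69.3 CPM. The part of these cells in the results on the antioxidant genes was not tested. In bulk tissue, fewer cells of a type and less RNA per cell cannot be told apart. Of 5 blood markers, the 4 globin genes were at 0 reads in every library, while Alas2 had 43 to 69 reads. Non-unique alignments were not counted, so these values were not taken as a measure of blood.

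The sequences 250 bases before to 50 bases after the start of 3 genes are shown, because Srxn1 and Slc7a11 are the members whose knockout libraries stood farthest apart and Sqstm1 is the most abundant. They come from RefSeq (GRCm38.p6), whose table held 10 such windows for 8 of the 10 members, Hmox1 and Gclc not being among them. Capitals mark matches, on either strand, to 4 motifs. TGACNNNGC and TGAGNNNGC are both spellings of the antioxidant response element core, TGANTCA is the AP-1 site, and TGATGNAA is the amino acid response element that ATF4 binds. The Srxn1 window is chr2:152105274-152105573 (plus strand), the Slc7a11 window is chr3:50443564-50443863 (minus strand) and the Sqstm1 window is chr11:50210771-50211070 (minus strand).
Srxn1: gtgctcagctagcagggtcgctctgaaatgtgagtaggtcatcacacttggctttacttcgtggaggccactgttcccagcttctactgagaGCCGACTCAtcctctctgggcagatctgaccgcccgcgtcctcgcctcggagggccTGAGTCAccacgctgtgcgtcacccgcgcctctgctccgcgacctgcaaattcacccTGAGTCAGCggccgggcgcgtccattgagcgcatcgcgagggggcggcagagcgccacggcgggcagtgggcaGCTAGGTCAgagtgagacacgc
Slc7a11: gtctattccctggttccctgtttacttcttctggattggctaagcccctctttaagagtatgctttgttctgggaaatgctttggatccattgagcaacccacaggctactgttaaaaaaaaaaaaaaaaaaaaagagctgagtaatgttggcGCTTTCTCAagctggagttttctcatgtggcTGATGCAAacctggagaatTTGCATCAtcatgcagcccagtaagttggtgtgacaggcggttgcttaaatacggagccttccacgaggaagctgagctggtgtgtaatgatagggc
Sqstm1: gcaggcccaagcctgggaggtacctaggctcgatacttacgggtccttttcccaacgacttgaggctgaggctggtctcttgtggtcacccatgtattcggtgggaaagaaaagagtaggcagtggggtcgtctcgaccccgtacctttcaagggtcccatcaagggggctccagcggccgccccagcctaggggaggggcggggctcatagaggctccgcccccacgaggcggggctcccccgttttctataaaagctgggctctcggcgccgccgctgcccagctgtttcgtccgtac

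In the Srxn1 window, TGAGTCAGC lay at -45 to -37 from the start site (position 0), and its first bases are also an AP-1 match. Another AP-1 match, TGAGTCA, lay at -102 to -96. The Slc7a11 window held TGATGCAA at -66 to -59 and, on the other strand, at -47 to -40. Among all 32851 windows in the table, 12.4% held TGACNNNGC, 17.6% TGAGNNNGC, 7.81% TGANTCA and 3.97% TGATGNAA. Of the 10 member windows, 4 held TGACNNNGC (Nfe2l2, Srxn1, Gclm and 1 of the 3 of Txnrd1) and 2 held TGAGNNNGC. The Sqstm1 window held no match, which says only that these letters are not in it. A match is a description of the sequence and was not tied to the expression values.

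Of the 10 members, 3 differed between the genotypes in edgeR's quasi-likelihood test across all 15011 genes that passed the filter on low counts. Gclc (the catalytic subunit of glutamate-cysteine ligase) and Sqstm1 (the autophagy receptor p62) rose, Hmox1 (heme oxygenase 1) fell, and 7 did not pass. Of all genes tested, 20.4% had a Benjamini-Hochberg adjusted p under 0.05, with 9.39% higher and 11.0% lower in the knockout, so 3 of 10 calls is near the background. The median log2 fold change over the members was 0.13, beside -8.09e-04 over all genes tested. The libraries of the groups did not overlap for 8 members (5 above and 3 below the controls). Of all genes tested 64.8% did not overlap, with 32.0% above and 32.8% below. All 10 members were tested, since each passed the filter. With edgeR no member passed when either control library was left out, and fewer of all genes passed as well. On all 4 libraries limma-voom and DESeq2 called 3 each. Without the first knockout library more members passed, as did more of all genes. Without the second, more members but fewer of all genes passed.

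**Figure D1:**
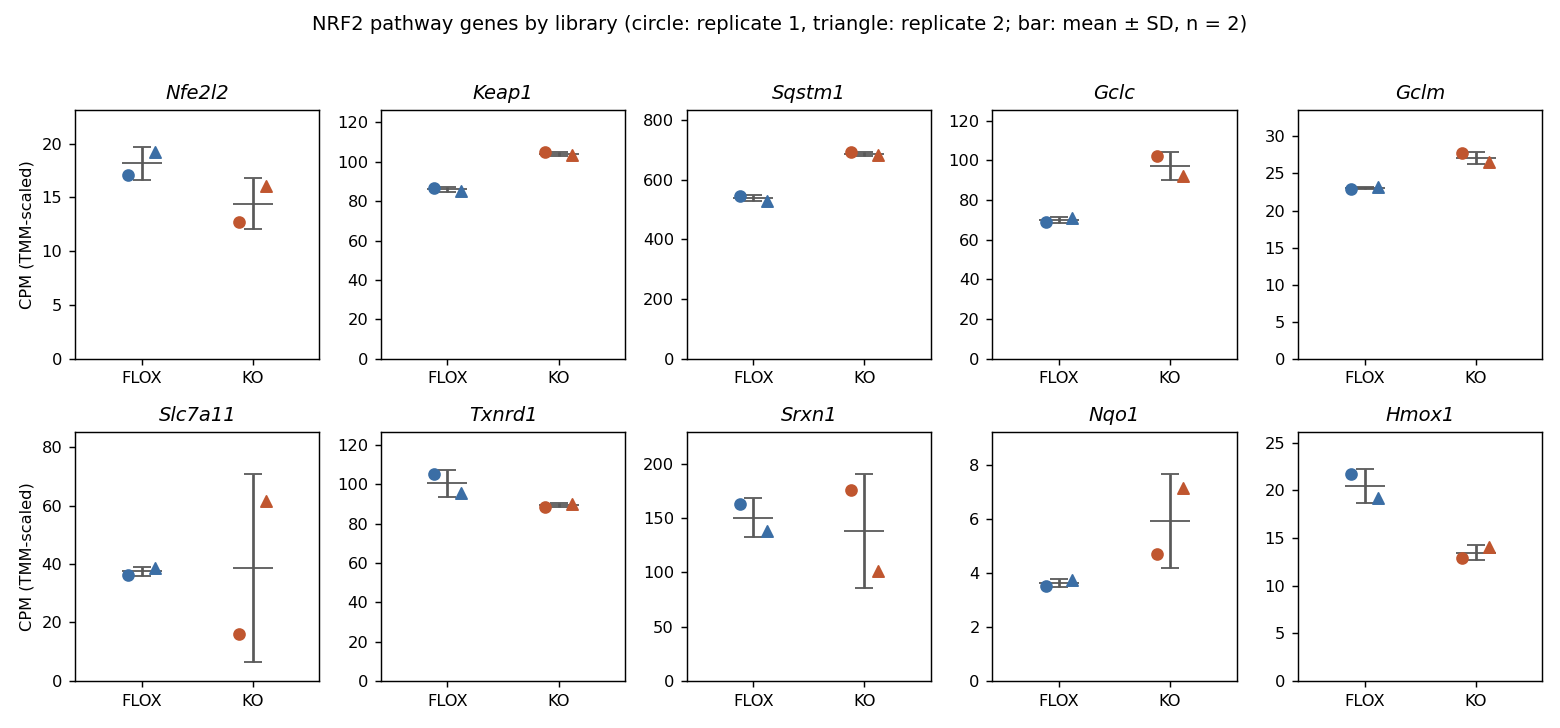
Level of each of the 10 genes in CPM (linear axes from 0) in the 4 libraries, with circles for replicate 1, triangles for replicate 2 and bars for mean ± SD (n = 2 each). Sqstm1, Gclc and Keap1 are higher in both knockout libraries and Hmox1 is lower in both, while the knockout libraries of Slc7a11 lie on either side of the controls at 15.9 and 61.5 CPM.

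Among the regulators, Nfe2l2 itself (chromosome 2, 75513570 to 75542698, minus strand, mm9) was at 17.1 and 19.3 CPM in control libraries and at 12.7 and 16.1 CPM in knockout libraries. Both knockout libraries lay below both controls, but they stood farther apart than the higher of them stood from the nearer control. Its log2 fold change was -0.34 ± 0.16 (SE) and did not pass (adjusted p = 0.176). NRF2 is controlled mainly through protein stability, so its mRNA level is not a measure of its activity.

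Keap1 (chromosome 9, 21034174 to 21043776, minus strand), the adaptor that directs NRF2 to degradation, was at 86.8 and 85.0 CPM in control libraries and at 105 and 103 CPM in knockout libraries. The libraries within each group lay close together and the groups did not overlap. The log2 fold change was 0.28 ± 0.09 and did not pass (adjusted p = 0.0711). Over the fits with 1 library left out it ran from 0.26 to 0.30.

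Sqstm1 (chromosome 11, 50012868 to 50024329, minus strand) encodes p62, which binds KEAP1 and carries it to autophagosomes, and is itself induced by NRF2. It was at 545 and 530 CPM in control libraries and at 692 and 682 CPM in knockout libraries. Both knockout libraries lay above both controls, with little spread inside either group. Sqstm1 was 1.28-fold higher in the knockout (log2 fold change 0.35 ± 0.09, adjusted p = 0.0269). The call was lost when the first control was left out (adjusted p = 0.135) or the second (0.182), although its log2 fold change stayed between 0.33 and 0.38. The gene overlaps 3010026O09Rik on the opposite strand, which went from 12.1 and 12.5 CPM to 22.9 and 24.3 CPM. The sources used here do not give the strand setting, so reads of the overlap could go to either gene or to neither.

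The next 3 members supply glutathione. GCLC joins glutamate and cysteine in the limiting step of glutathione synthesis, GCLM is the modifier subunit that raises its efficiency, and SLC7A11 (xCT) is the transporter that imports cystine in exchange for glutamate. Gclc (chromosome 9, 77602342 to 77642292, plus strand) was at 68.7 and 70.8 CPM in control libraries and at 102 and 92.1 CPM in knockout libraries. Both knockout libraries were higher than both controls, and Gclc was 1.39-fold higher (log2 fold change 0.48 ± 0.10, adjusted p = 0.0183). The call was lost when the first control was left out (adjusted p = 0.124) or the second (0.109), with log2 fold changes of 0.46 and 0.50.

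Gclm (chromosome 3, 121948475 to 121972902, plus strand) was at 23.0 and 23.1 CPM in control libraries and at 27.7 and 26.6 CPM in knockout libraries. The groups did not overlap, but the change of 0.24 ± 0.12 on the log2 scale did not pass (adjusted p = 0.188). Whether the subunits Gclc and Gclm differed from each other in their change was not tested.

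Slc7a11 (chromosome 3, 50168858 to 50247535, minus strand) was at 36.3 and 38.6 CPM in control libraries, at 15.9 CPM in the first knockout library and at 61.5 CPM in the second. The controls were alike, while 1 knockout library lay far below them and the other far above. The knockout libraries differed 3.86-fold, a gap that 0.867% of the tested genes matched or exceeded. The log2 fold change over both was 0.03 ± 0.68 (adjusted p = 0.978), an average of opposite values. With only the second knockout library Slc7a11 was higher than the controls (log2 fold change 0.71, adjusted p = 8.26e-04), and with only the first it was lower (log2 fold change -1.22, adjusted p = 0.00110). In those fits the lone library is assumed to vary as the controls do.

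The second knockout library is also the one with 465 CPM of meningeal and 235 CPM of mural markers, against 130 and 70.4 CPM in the first; the part of these cells in the Slc7a11 level was not tested. The heavy chain that carries xCT to the membrane, Slc3a2, did not follow this split, at 164 and 169 CPM in control libraries and 190 and 192 CPM in knockout libraries (log2 fold change 0.20 ± 0.09, adjusted p = 0.154).

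**Figure D2:**
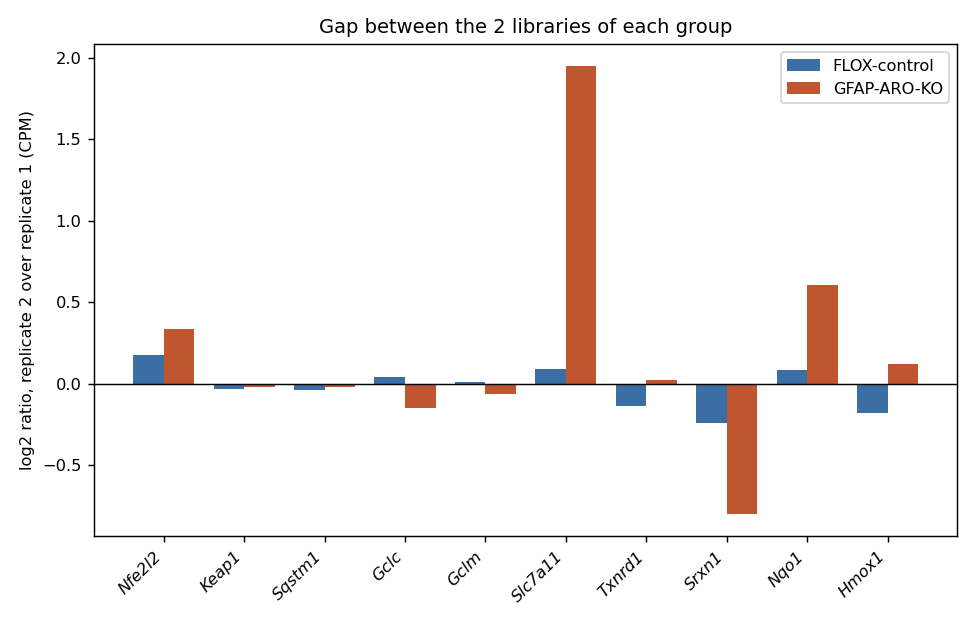
Log2 ratio of replicate 2 to replicate 1 in CPM for each gene, with blue bars for FLOX-control and orange bars for GFAP-ARO-KO. Slc7a11 has the widest gap of the 10 genes, at 1.95 between the knockout libraries and 0.09 between the controls, and Srxn1 has a gap of -0.80 the other way.

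Thiol repair was represented by Txnrd1, the cytosolic thioredoxin reductase that returns oxidized thioredoxin to use, and Srxn1, sulfiredoxin, which rescues overoxidized peroxiredoxins. Srxn1 (chromosome 2, 151931252 to 151937112, plus strand) was at 163 and 138 CPM in control libraries and at 175 and 101 CPM in knockout libraries. The first knockout library was above both controls and the second below both, the reverse of Slc7a11. Of the tested genes, 7.07% had a gap between knockout libraries at least as wide as the 1.74-fold gap of Srxn1. The log2 fold change was -0.12 ± 0.26 (adjusted p = 0.778). With only the second knockout library it was -0.58 (adjusted p = 0.00612) and with only the first it was 0.23 (adjusted p = 0.228).

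Txnrd1 (chromosome 10, 82296696 to 82360469, plus strand) was at 105 and 95.8 CPM in control libraries and at 88.7 and 90.1 CPM in knockout libraries. Both knockout libraries lay just below the controls. The log2 fold change of -0.17 ± 0.10 did not pass (adjusted p = 0.252).

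The remaining members handle quinones and heme. Hmox1 (chromosome 8, 77617490 to 77624495, plus strand) encodes the inducible enzyme that opens heme to biliverdin, iron and carbon monoxide, and is repressed by BACH1 until heme or oxidants release it. It was at 21.7 and 19.2 CPM in control libraries and at 12.9 and 14.0 CPM in knockout libraries. Both knockout libraries were lower than both controls, and Hmox1 was 1.52-fold lower (log2 fold change -0.61 ± 0.14, adjusted p = 0.0248). The call was lost when the first control was left out (-0.51, adjusted p = 0.203) or the second (-0.70, adjusted p = 0.0984). Hmox1 is known to be strongly induced in macrophages and microglia. Of the 12 microglia and macrophage markers, 9 fell in the same libraries, among them Tmem119, which went from 34.0 and 35.9 CPM to 12.3 and 12.4 CPM. Trem2, Ptprc and Cd68 did not pass, and Cd68 overlapped between the groups at 15.0 and 17.9 CPM against 18.0 and 12.1 CPM. The part of these cells in the Hmox1 result was not tested.

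Nqo1 (chromosome 8, 109912125 to 109927106, minus strand) encodes a quinone reductase that is a standard readout of NRF2. It was at 3.52 and 3.73 CPM in control libraries and at 4.70 and 7.16 CPM in knockout libraries. Both knockout libraries were above the controls, the second far more so. The log2 fold change of 0.69 ± 0.26 was the largest of the members but did not pass (adjusted p = 0.0954). With only the second knockout library it was 0.98 (adjusted p = 0.00614) and with only the first it was 0.38. The second library is the one with high meningeal markers, and their part in the Nqo1 level was not tested.

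**Figure D3:**
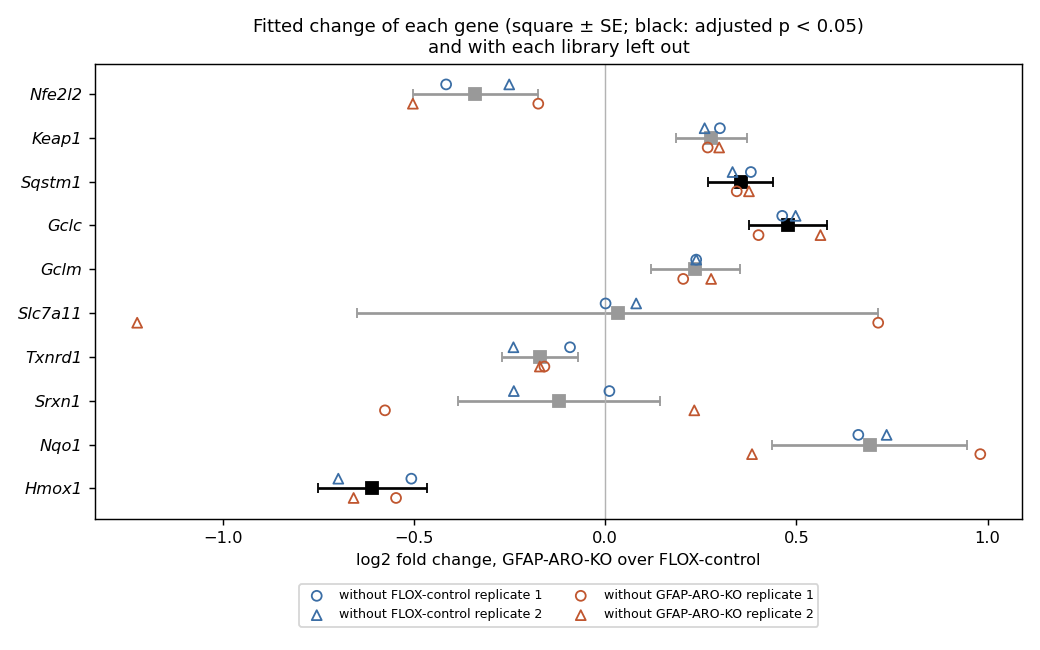
Fitted log2 fold change of each gene, GFAP-ARO-KO over FLOX-control, as squares ± SE (black where adjusted p is under 0.05), with open symbols for the fits that leave out 1 library. Gclc, Sqstm1 and Hmox1 keep their direction in all 4 such fits, whereas Slc7a11 runs from -1.22 to 0.71 and Srxn1 from -0.58 to 0.23.

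Per kilobase of exon, levels can be set beside each other between genes. Sqstm1 was highest, at 158 to 206 CPM per kb over the 4 libraries, followed by Srxn1 at 35.8 to 62.2 CPM per kb. Gclc (20.1 to 29.9), Txnrd1 (22.1 to 26.2) and Keap1 (19.0 to 23.5 CPM per kb) overlapped in their ranges. Hmox1 came next at 5.96 to 10.1 CPM per kb. Gclm, Nfe2l2, Slc7a11 and Nqo1 overlapped with each other, within 1.42 to 5.47 CPM per kb in all. At most 2.20% of the 50-base windows of any member transcript (Slc7a11) were found more than once in the genome. A single copy of a window that spans an exon junction is missed by this count.

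Of 98 other tested genes of the pathway and its surroundings, in 9 lists, 7 rose and 7 fell (14.3%, beside 20.4% of all genes tested), with a median log2 fold change of -0.02. Fewer of them passed without either control library, as over all genes. More passed without the first knockout library, also as over all genes. Without the second knockout library slightly more of them but fewer of all genes passed.

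**Figure D4:**
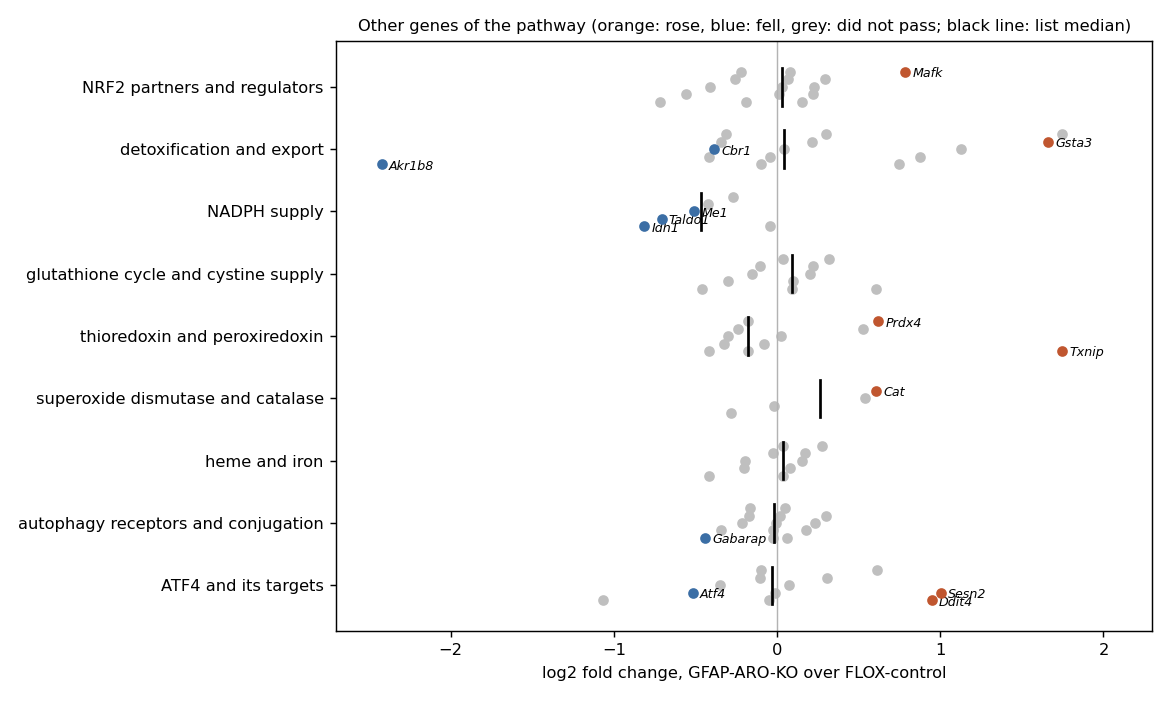
Log2 fold change, GFAP-ARO-KO over FLOX-control, of the 98 tested genes in 9 lists, with orange for genes that rose, blue for genes that fell, grey for those that did not pass and a black line at each list's median. The NADPH supply list has all 6 genes below 0 and a median of -0.46, and the other list medians lie between -0.18 and 0.26.

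NADPH is the reducing power that glutathione reductase and thioredoxin reductase use. Of 6 genes listed for its supply, 3 fell and 0 rose, beside 11.0% lower among all genes tested, and the median log2 fold change was -0.46. Taldo1 and Tkt belong to the non-oxidative branch of the pentose phosphate pathway and do not make NADPH themselves. Pgd, the 6-phosphogluconate dehydrogenase that does, was at 38.9 and 36.9 CPM in control libraries and at 37.0 and 36.5 CPM in knockout libraries. Its groups overlapped (log2 fold change -0.04 ± 0.11, adjusted p = 0.808). G6pdx, glucose-6-phosphate dehydrogenase, which also makes NADPH, was at 38.2 and 39.1 CPM in control libraries and at 31.5 and 26.1 CPM in knockout libraries. Both knockout libraries lay below both controls, but its log2 fold change of -0.42 ± 0.13 did not pass (adjusted p = 0.0558). Idh1, the cytosolic NADP-dependent isocitrate dehydrogenase, was at 63.1 and 72.4 CPM in control libraries and at 37.7 and 39.3 CPM in knockout libraries, 1.76-fold lower (log2 fold change -0.81 ± 0.11, adjusted p = 0.00470). Taldo1, transaldolase of the pentose phosphate pathway, was at 98.6 and 95.2 CPM in control libraries and at 61.8 and 56.9 CPM in knockout libraries, 1.63-fold lower (log2 fold change -0.71 ± 0.10, adjusted p = 0.00491). Both passed with any 1 of the 4 libraries left out. Me1, malic enzyme, also fell (log2 fold change -0.51 ± 0.12, adjusted p = 0.0226), but not when the first control was left out (adjusted p = 0.0882) or the second (0.178). In Me1, 28.9% of the transcript's 50-base windows were found more than once in the genome. Tkt, transketolase and the most abundant of the list, was at 196 ± 9.23 CPM in control libraries and 162 ± 0.287 CPM in knockout libraries (SD, n = 2 each; adjusted p = 0.0771).

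Of 15 partners and regulators of NRF2, 1 rose and 0 fell (6.67% called, beside 20.4% of all genes tested). Mafk, a small MAF protein with which NRF2 or BACH1 binds the antioxidant response element, was at 19.5 and 14.7 CPM in control libraries and at 29.5 CPM in both knockouts, 1.72-fold higher (log2 fold change 0.79 ± 0.16, adjusted p = 0.0154, or 0.117 when the second control was left out). Mafk overlaps Tmem184a in the annotation. Mafg, another small MAF, was at -0.41 ± 0.14 in log2 fold change (adjusted p = 0.0703), and the repressor Bach1 at -0.22 ± 0.17 (adjusted p = 0.404). Nfe2l1, which encodes the related factor NRF1, was the most abundant of the list at 454 ± 15.6 CPM in control libraries and 381 ± 24.6 CPM in knockout libraries (SD, n = 2 each; adjusted p = 0.0946). Cul3, the ligase scaffold that KEAP1 recruits, was at 0.08 ± 0.11 in log2 fold change (adjusted p = 0.629). With the first knockout left out, when more of all genes passed, Mafk was called higher and Mafg, Nfe2l1 and Dpp3 lower. With the second left out, when fewer of all genes passed, Mafk and Btrc were called higher and Nfe2l3 lower.

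Of 15 tested genes of detoxification and export, 1 rose, 2 fell and 12 did not pass, and 3 more were too low to test. The share called, 20.0%, is near the 20.4% of all genes tested. Akr1b8, an aldo-keto reductase, went from 99 and 127 reads to 13 and 27, and was 5.36-fold lower (log2 fold change -2.42 ± 0.40, adjusted p = 0.00836), passing with any 1 library left out. Gsta3, a glutathione S-transferase at low level, went from 0.538 and 0.367 CPM to 1.17 and 1.77 CPM (log2 fold change 1.66 ± 0.42, adjusted p = 0.0315). It did not pass without either control or without the second knockout library (adjusted p from 0.0760 to 0.191), nor with DESeq2 (0.0678). Cbr1, carbonyl reductase, fell by 0.39 ± 0.10 on the log2 scale (adjusted p = 0.0372), and did not pass without either control or the second knockout library (0.0755 to 0.218). Gstm1, the most abundant, was at 139 ± 5.62 CPM in control libraries and 143 ± 13.7 CPM in knockout libraries (SD, n = 2 each; adjusted p = 0.797). Without the first knockout library, which leaves the library with high meningeal markers, more of the list passed, most of them higher. More of all genes passed in that fit too.

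Of 11 thioredoxin and peroxiredoxin genes, 2 rose and 0 fell (18.2% called, beside 20.4% of all genes tested). Txnip, which binds and inhibits thioredoxin, was at 22.5 and 15.9 CPM in control libraries and at 45.1 and 84.1 CPM in knockout libraries, 3.35-fold higher (log2 fold change 1.75 ± 0.34, adjusted p = 0.0244). Its knockout libraries were both higher than the controls but far apart. The Txnip call was lost when the first control was left out (adjusted p = 0.139) or the second (0.208), and the gene overlaps Gm15441. Prdx4, the peroxiredoxin of the endoplasmic reticulum, rose by 0.62 ± 0.17 (adjusted p = 0.0386), a call lost without either control or the second knockout library (0.0694 to 0.237). Txn1 (log2 fold change -0.42 ± 0.14, adjusted p = 0.0733), Prdx1 (-0.30 ± 0.10, adjusted p = 0.0705) and Txnrd2, the mitochondrial reductase (-0.18 ± 0.18, adjusted p = 0.521), did not pass. Txn1 passed in 1 of the 4 fits with a library left out (adjusted p = 0.0489), and so did Prdx1 (0.0442). With the first knockout left out more of the list passed, as did more of all genes. With the second left out the number for the list was unchanged, while fewer of all genes passed. In both fits calls went in both directions. Prdx6, the most abundant, was at 199 ± 8.37 CPM in control libraries and 189 ± 16.3 CPM in knockout libraries (SD, n = 2 each; adjusted p = 0.613).

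Of the superoxide dismutases and catalase, 1 of 4 rose and 0 fell (25.0% called, beside 20.4% of all genes tested). The extracellular Sod3 was at 0.54 ± 0.25 in log2 fold change (adjusted p = 0.157). With 1 library left out it ran from 0.26 to 0.81. Cat, which breaks down hydrogen peroxide in peroxisomes, was at 48.2 and 49.7 CPM in control libraries and at 65.5 and 83.7 CPM in knockout libraries, 1.52-fold higher (log2 fold change 0.61 ± 0.13, adjusted p = 0.0211, and 0.111 or 0.102 when the first or second control was left out). Sod2, the mitochondrial manganese enzyme and the most abundant, was at -0.28 ± 0.09 in log2 fold change (adjusted p = 0.0739). In Sod2, 24.2% of the transcript's 50-base windows were found more than once in the genome.

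In edgeR 0 of 11 tested genes of the glutathione cycle and cystine supply passed, with 2 at an unadjusted p under 0.05. For heme and iron 0 of 10 passed, also with 2. Of all genes tested 20.4% passed. DESeq2 and limma-voom called 0 in both lists. Without the first knockout library edgeR called 1 in each, Glrx (glutaredoxin) and Tfrc (the transferrin receptor), both higher. Gsr, glutathione reductase, was at 0.22 ± 0.14 in log2 fold change (adjusted p = 0.294), and the neuronal cysteine and glutamate transporter Slc1a1, the most abundant, at 0.04 ± 0.11 (adjusted p = 0.832). Hmox2, the constitutive heme oxygenase, was at 97.0 and 102 CPM in control libraries and at 107 and 96.5 CPM in knockout libraries (log2 fold change 0.03 ± 0.10, adjusted p = 0.838), beside the fall of Hmox1. The ferritin genes Fth1 (log2 fold change -0.02 ± 0.09) and Ftl1 (0.04 ± 0.10) did not pass (adjusted p = 0.877 and 0.830). Of the Ftl1 windows, 74.9% were found more than once in the genome.

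Around p62, 1 of 14 autophagy receptors and conjugation genes fell and 0 rose (7.14% called, beside 20.4% of all genes tested). Gabarap, an ATG8 protein that binds such receptors, was at 176 and 180 CPM in control libraries and at 127 and 135 CPM in knockout libraries (log2 fold change -0.44 ± 0.09, adjusted p = 0.0182, and 0.105 or 0.126 when the first or second control was left out). Gabarapl1, the most abundant, was at 0.02 ± 0.08 in log2 fold change (adjusted p = 0.906).

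ATF4, the amino acid and stress factor that also drives Slc7a11, was read with 11 of its targets, of which 2 rose, while Atf4 itself fell. These calls are 25.0% of the list, beside 20.4% of all genes tested. Atf4 was at 213 and 200 CPM in control libraries and at 155 and 133 CPM in knockout libraries, 1.43-fold lower (log2 fold change -0.52 ± 0.11, adjusted p = 0.0172, and 0.113 or 0.0719 when the first or second control was left out). Sesn2, sestrin 2, which NRF2 and p53 can also induce, was at 15.0 and 15.2 CPM in control libraries and at 31.8 and 28.6 CPM in knockout libraries, 2.00-fold higher (log2 fold change 1.00 ± 0.13, adjusted p = 0.00382). It passed with any 1 library left out, and it overlaps Gm12981. Ddit4, an mTOR inhibitor that hypoxia and glucocorticoids also induce, rose by 0.95 ± 0.23 (adjusted p = 0.0345), but passed in only 1 of the 4 fits with a library left out. Atf4 was lower in both knockout libraries, and Slc7a11 lay below the controls in 1 and above them in the other. The part of ATF4 in the Slc7a11 level was not tested.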

How the data were processed

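Hippocampal total RNA libraries (50 bp single-end reads, duplicate runs combined before alignment, per the labels' protocols and the series' design text) were aligned and counted by the authors. The submitters' processing notes name TopHat2 2.0.8b, HTSeq and mm9. The deposited values are raw counts per gene symbol. The sources used here name neither annotation nor strand setting. Tally rows that name no gene held 45.2% to 47.3% of entries (mostly non-unique alignments) and were left out.

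Genes were kept by filterByExpr (minimum count 10, total 15), scaled by TMM and tested with edgeR 4.0.16 in R 4.3.3 (glmQLFit, robust, legacy=FALSE; glmQLFTest) with Benjamini-Hochberg adjustment over 15011 genes and a threshold of 0.05. SE is the size of the log2 fold change over the square root of F. CPM per kb uses merged exons of GENCODE vM1 (NCBIM37, the assembly of mm9), which also gave coordinates and overlaps. The steps were also run on simulated counts with the same spread in both groups, so that check does not cover unequal spread. Alternatives used limma 3.58.1 (voom), DESeq2 1.42.0, other scalings, filters and estimation, a replicate block, and fits without each library.

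The members and lists were chosen with earlier results of these data known. Named were all 10 members, 14 fixed pathway genes and, per list, the most abundant gene and the 2 smallest p past the threshold. Me1, Cbr1, Ddit4, Pgd, G6pdx, 3010026O09Rik and the single cell type markers were named after their values were seen. So were the genes called only with a library left out (Dpp3, Btrc, Nfe2l3, Glrx, Tfrc, Sod3).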

Additional observations from a re-analysis of the deposited data

How the results depend on the processing

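Every setting on all 4 libraries gave 3 calls among the 10 members: RLE and upper-quartile scaling, no filter or 1 CPM in 2 libraries, legacy and non-robust estimation, DESeq2, limma-voom and the replicate number as a block. With 1 library left out, calls ran from 0 to 6 for the members, from 4 to 29 for the 98 other pathway genes and from 814 to 4820 for all genes. The replicate block gave 3193 calls over all genes and 16 among the pathway genes. Same-numbered libraries did not deviate together (correlation of deviations -0.0229), so the numbers were not taken as pairs. Under the block Txnip did not pass (adjusted p = 0.0952).

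Of 637 log2 fold changes of 49 named genes under other settings, 17 changed sign, in 11 genes. Slc7a11 was -0.312 with limma-voom and -0.231 with the replicate block, and Fth1 was 0.001 with upper-quartile scaling. The rest came with 1 library left out, where Slc7a11 ran from -1.22 to 0.714, Srxn1 from -0.576 to 0.233, Cul3 from -0.02 to 0.186, Gstm1 from -0.046 to 0.139, Slc1a1 from -0.064 to 0.155, Txnrd2 from -0.44 to 0.039, Prdx6 from -0.159 to 0.007, Hmox2 from -0.044 to 0.118, Fth1 from -0.086 to 0.047, Ftl1 from -0.034 to 0.112 and Pgd from -0.082 to 0.003. The cause was not tested. Leaving out any 1 library leaves groups of 1 and 2, and the spread is then read only from the group with 2. The knockout libraries differed more from each other than the controls did (chi-square of the counts per degree of freedom 22.9 against 12.4). Calls over all genes were fewer without a control than without a knockout library.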
